A study of Mus musculus with 3 samples.

Results

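Chromatin accessibility was read over 7 genes that mark neural progenitors (Sox1, Sox2, Sox3, Pax6, Nes, Fabp7 and Vim), named as a list and kept whatever their values, of 21593 protein-coding genes counted. The reads came from single-nucleus ATAC-seq of mouse embryos, in which a transposase inserts adapters into open DNA of single nuclei. There were 3 libraries, 1 for each of the stages E12.5, E13.5 and E15.5, all from wild-type C57BL/6JRj embryos with no treatment. Nuclei were taken from 3 to 5 pooled frozen sections of 70 µm per stage, so a library holds only the tissue those sections crossed. Nuclei were sorted on 7-AAD, a dye of DNA, and barcoded in 10x droplets.

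The authors' cluster number was deposited for 1879 nuclei (153, 970 and 756 from the youngest stage to the oldest). Clusters 2 and 4, of low depth, were left out of the comparisons, which left 1450 nuclei. Cluster 9 held 81 nuclei (11, 50 and 20 by stage). Clusters 0 and 6 held 270 nuclei (11, 87 and 172) and 131 nuclei (5, 76 and 50). The libraries held 9402554, 87687839 and 53120243 unique fragments, in the same order. Cluster 9 had a median of 72286 unique fragments per nucleus, against 64329 in clusters 0 and 6 together. In all, 1 barcode occurred in more than 1 library, and 175 nuclei shared at least 10% of their fragments with another barcode of the same library, 1 of them in cluster 9. Doublets were not removed here.

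Neural progenitors are the dividing cells of the embryonic neuroepithelium and, later, the radial glia that line the ventricles and give rise to neurons and then glia. Sox1, Sox2 and Sox3 encode the SOXB1 transcription factors, which hold cells in the progenitor state. Pax6 encodes a paired-box and homeobox factor that patterns the forebrain, eye and spinal cord. Nestin (Nes) and vimentin (Vim) are intermediate filament proteins of the long radial processes, and vimentin is also a filament of mesenchyme. Fabp7 encodes the brain fatty acid binding protein of radial glia. As neurons form, several of these genes are switched off.

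The label of the clusters was checked with marker lists from which the 7 genes were left out. In cluster 9, 24 of 30 progenitor markers had a level at least 1.5-fold that of the other clusters, against 4 of 18 neuron markers counted. Its leading genes by fold included Fabp7, Sox3, Fezf2, Sox1, Pax6, Hes5, Fam181a, 1810010D01Rik and Neurog2, so cluster 9 is called neural-progenitor-like. Since 4 of these are among the 7 genes and the authors clustered these same nuclei, the rank of the 7 genes here describes the clusters and is no separate evidence. The summed level of the 30 markers was 3470, 4182 and 4143 CPM in cluster 9, where values of 3 libraries are always given from the youngest stage to the oldest. CPM is a gene's share of the unique fragments over all genes counted in the same nuclei, on the counts-per-million scale. The sum was 2552, 2862 and 2743 CPM in cluster 6, 2223, 2211 and 2036 CPM in cluster 0 and 2175, 1813 and 2153 CPM in the remaining clusters together. Clusters 0 and 6 are called neuron-like, with 15 and 12 of 18 neuron markers at least 1.5-fold. In cluster 6, 9 of the 30 progenitor markers also reached that level.

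Accessible stretches near 4 of the 7 genes are shown first because they lie in promoters or windows whose fragments are given later. They are printed 5′ to 3′ on the plus strand of GRCm38, the assembly of mm10, with capitals at the motifs searched for. The Sox2 promoter (chr3:34649745-34650044, RefSeq, inside the noncoding gene Sox2ot) and a stretch 7.65 kb upstream of Sox2, also in Sox2ot (chr3:34642590-34642889), read as follows.
Sox2 promoter: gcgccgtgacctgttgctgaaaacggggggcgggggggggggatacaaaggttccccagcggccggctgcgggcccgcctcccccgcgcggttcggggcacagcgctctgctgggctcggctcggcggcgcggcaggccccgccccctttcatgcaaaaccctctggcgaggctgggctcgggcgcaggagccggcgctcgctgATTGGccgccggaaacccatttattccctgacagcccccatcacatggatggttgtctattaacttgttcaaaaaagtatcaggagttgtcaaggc
Sox2 upstream stretch: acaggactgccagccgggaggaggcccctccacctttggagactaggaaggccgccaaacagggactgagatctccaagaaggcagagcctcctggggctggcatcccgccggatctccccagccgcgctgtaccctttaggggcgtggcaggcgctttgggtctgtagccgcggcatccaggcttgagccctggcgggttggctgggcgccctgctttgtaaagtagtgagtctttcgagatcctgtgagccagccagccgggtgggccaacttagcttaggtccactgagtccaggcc

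For Pax6, the stretch lies in intron 3, 11.85 kb from the gene's start (chr2:105680566-105680865). For Nes, the first stretch lies 10.3 kb upstream, outside any gene (chr3:87960696-87960995), and the second lies in intron 2 (chr3:87974195-87974494). The intron 2 stretch was picked after its values were seen, because that intron is known for an enhancer active in neural progenitors.
Pax6 intron 3: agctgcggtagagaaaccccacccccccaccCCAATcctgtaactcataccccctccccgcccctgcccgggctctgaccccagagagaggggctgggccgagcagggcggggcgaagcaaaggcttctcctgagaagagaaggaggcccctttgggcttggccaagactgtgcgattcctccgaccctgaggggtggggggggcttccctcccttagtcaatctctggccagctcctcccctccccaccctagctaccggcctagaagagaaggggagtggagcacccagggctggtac
Nes upstream stretch: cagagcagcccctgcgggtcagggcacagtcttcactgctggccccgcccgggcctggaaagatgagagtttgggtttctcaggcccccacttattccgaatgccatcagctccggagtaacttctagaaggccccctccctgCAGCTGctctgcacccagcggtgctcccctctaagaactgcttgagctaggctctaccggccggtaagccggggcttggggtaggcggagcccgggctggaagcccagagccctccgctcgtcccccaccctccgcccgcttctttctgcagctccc
Nes intron 2: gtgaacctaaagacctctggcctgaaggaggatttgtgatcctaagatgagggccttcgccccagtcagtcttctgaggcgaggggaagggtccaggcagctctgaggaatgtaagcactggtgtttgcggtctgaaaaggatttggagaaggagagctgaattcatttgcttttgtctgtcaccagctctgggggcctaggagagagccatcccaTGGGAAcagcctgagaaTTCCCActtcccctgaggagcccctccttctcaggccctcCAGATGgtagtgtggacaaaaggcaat

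For Fabp7, the promoter (chr10:57784673-57784972, RefSeq) and a stretch 43.9 kb downstream of the gene's start (chr10:57828688-57828987), outside any gene, are shown.
Fabp7 promoter: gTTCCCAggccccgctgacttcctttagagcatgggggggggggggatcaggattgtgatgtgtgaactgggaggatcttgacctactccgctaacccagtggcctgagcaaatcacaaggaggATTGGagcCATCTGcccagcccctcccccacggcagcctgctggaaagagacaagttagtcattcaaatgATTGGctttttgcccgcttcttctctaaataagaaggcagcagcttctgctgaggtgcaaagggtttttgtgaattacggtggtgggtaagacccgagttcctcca
Fabp7 downstream stretch: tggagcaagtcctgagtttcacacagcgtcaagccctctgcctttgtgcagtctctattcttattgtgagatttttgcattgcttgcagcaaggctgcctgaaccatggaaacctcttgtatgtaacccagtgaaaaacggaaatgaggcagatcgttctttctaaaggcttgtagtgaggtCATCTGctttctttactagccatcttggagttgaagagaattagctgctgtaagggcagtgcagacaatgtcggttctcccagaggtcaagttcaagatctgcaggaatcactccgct

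Motifs were searched on both strands. CCAAT, the box bound by the factor NF-Y, stood in 5 of 7 promoters of the genes found in the RefSeq table, against 37.4% of 32817 promoters of the same length. Sox3 had no entry there, and Pax6 had 2. The letters TGGGAA, a core of the Notch partner RBPJ, stood in 2 of the 7 promoters (25.6% of all) and once on each strand of the Nes intron 2 stretch. The E-box CAGNTG of proneural factors stood in 1 of the 7 promoters (51.4% of all) and was also found in the Nes upstream, Nes intron 2 and Fabp7 downstream stretches. AACAANG, a SOX motif, stood in 1 of 7 promoters (14.1% of all). ATGCNAAT, the POU octamer, stood in 1 (3.15% of all), as did TATAAA (13.6% of all). The same letters were read in 16045 stretches of 300 bases from windows chosen across the genome by the rule given later. Of these 55.6% held the E-box, 29.65% TGGGAA, 32.5% CCAAT, 17.1% AACAANG, 9.30% TATAAA and 5.26% the octamer. Near the 7 genes 5 such stretches were named by that rule, without the Nes intron 2 stretch. The E-box stood in 2 of the 5, CCAAT in 2, TGGGAA in 1, the octamer in 1, and AACAANG and TATAAA in 0. Among the 5, that of Sox1 (chr8:12395501-12395800) overlaps the RefSeq Sox1 promoter (chr8:12395269-12395568). Its octamer and TGGGAA matches are the same bases as those of that promoter, so they are counted in both sets. A match is a description of the letters and not of binding.

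The SOXB1 genes are short, and each was read over its body with 2 kb upstream. Sox1 (chr8:12395295-12400126) had 62.9, 80.9 and 111 CPM in cluster 9 by stage. In cluster 0 it had 18.5, 42.9 and 36.5 CPM, and in cluster 6 it had 55, 32.1 and 37.2 CPM. Cluster 9 was above both neuron-like clusters in each library, although at E12.5 the counting intervals of cluster 9 (45.9 to 84.2) and cluster 6 (30.8 to 90.7) overlapped. The remaining clusters together had 14.4, 12.8 and 12.6 CPM. In E13.5, cluster 9 was followed by clusters 0 and 6, whose intervals (36.4 to 50.1 and 26.4 to 38.6) met, and then by cluster 3, which was left unnamed, at 19.0 CPM.

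Sox2 (chr3:34650405-34652461) had 35, 48.6 and 66.5 CPM in cluster 9. It had 21.6, 27.5 and 21.6 CPM in cluster 0 and 47.7, 21.8 and 26.6 CPM in cluster 6. At E12.5 it was therefore higher in cluster 6, of 5 nuclei, than in cluster 9, with intervals of 25.4 to 81.5 and 22.6 to 51.6 CPM. Cluster 7, of 6 nuclei, was also above cluster 9 there, at 36.6 CPM (16.8 to 69.6). In the other libraries cluster 9 was the highest of the 10 clusters. Sox3 (chrX:60891366-60893430) had 26.6, 36.2 and 36.1 CPM in cluster 9. In cluster 6 it had 33.0, 16.9 and 7.77 CPM, and in cluster 0 6.18, 7.97 and 5.72 CPM. Cluster 6 thus lay above cluster 9 at E12.5, within overlapping intervals, and well below it at E15.5.

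Pax6 (chr2:105668900-105697364) had 155, 254 and 169 CPM in cluster 9, from 111, 596 and 150 fragments. In cluster 0 it had 49.4, 75.0 and 58.4 CPM. In cluster 6 it had 69.7, 121 and 146 CPM, the second highest level in all 3 libraries. At E15.5 the intervals of clusters 9 (143 to 199) and 6 (129 to 165) overlapped. The 7 remaining clusters were each at 69.2 CPM or less.

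The filament genes also had levels near that of cluster 9 in other clusters. Nes (chr3:87971078-87980451) had 97.9, 87.7 and 69.9 CPM in cluster 9, 27.8, 34.9 and 23.9 CPM in cluster 0 and 3.67, 41.0 and 27.7 CPM in cluster 6. At E15.5 the muscle-like cluster 10 had 75.0 CPM (60.5 to 91.9), above cluster 9 (53.6 to 89.7) within overlapping intervals. Cluster 10 was also second at E13.5, with 60.2 CPM. Vim (chr2:13573927-13582826) had 65.7, 85.6 and 82.3 CPM in cluster 9, 18.5, 23.6 and 27.3 CPM in cluster 0 and 47.7, 40.1 and 33.8 CPM in cluster 6. The clusters other than 0, 6 and 9 together had 41.8, 37.9 and 59.4 CPM of Vim, more than cluster 0 in every library. At E15.5 clusters 8 and 7, at 76.8 and 70.0 CPM, had intervals that overlapped that of cluster 9.

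Fabp7 (chr10:57784881-57788450) had 28.0, 34.5 and 44.0 CPM in cluster 9. It had 6.18, 4.12 and 7.04 CPM in cluster 0 and 22, 18.0 and 11.7 CPM in cluster 6. At E12.5 it was highest in cluster 7, of 6 nuclei, at 52.9 CPM (28.2 to 90.5). Cluster 7 had 15 CPM at E13.5 and 4.68 CPM at E15.5. That cluster was left unnamed, with 4 of 10 neural crest and glia markers and 5 of 6 epithelial markers at least 1.5-fold.

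Across the 7 genes, cluster 9 was the highest of 10 clusters for all 7 at E13.5 and for 6 at E15.5, and of 7 clusters for 4 at E12.5. The share of all genes with cluster 9 highest was not computed, and the authors built the clusters from these same nuclei. Differences in level can reflect the share of nuclei that were open or the number of fragments per open nucleus, which the sums cannot tell apart.

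**Figure D1:**
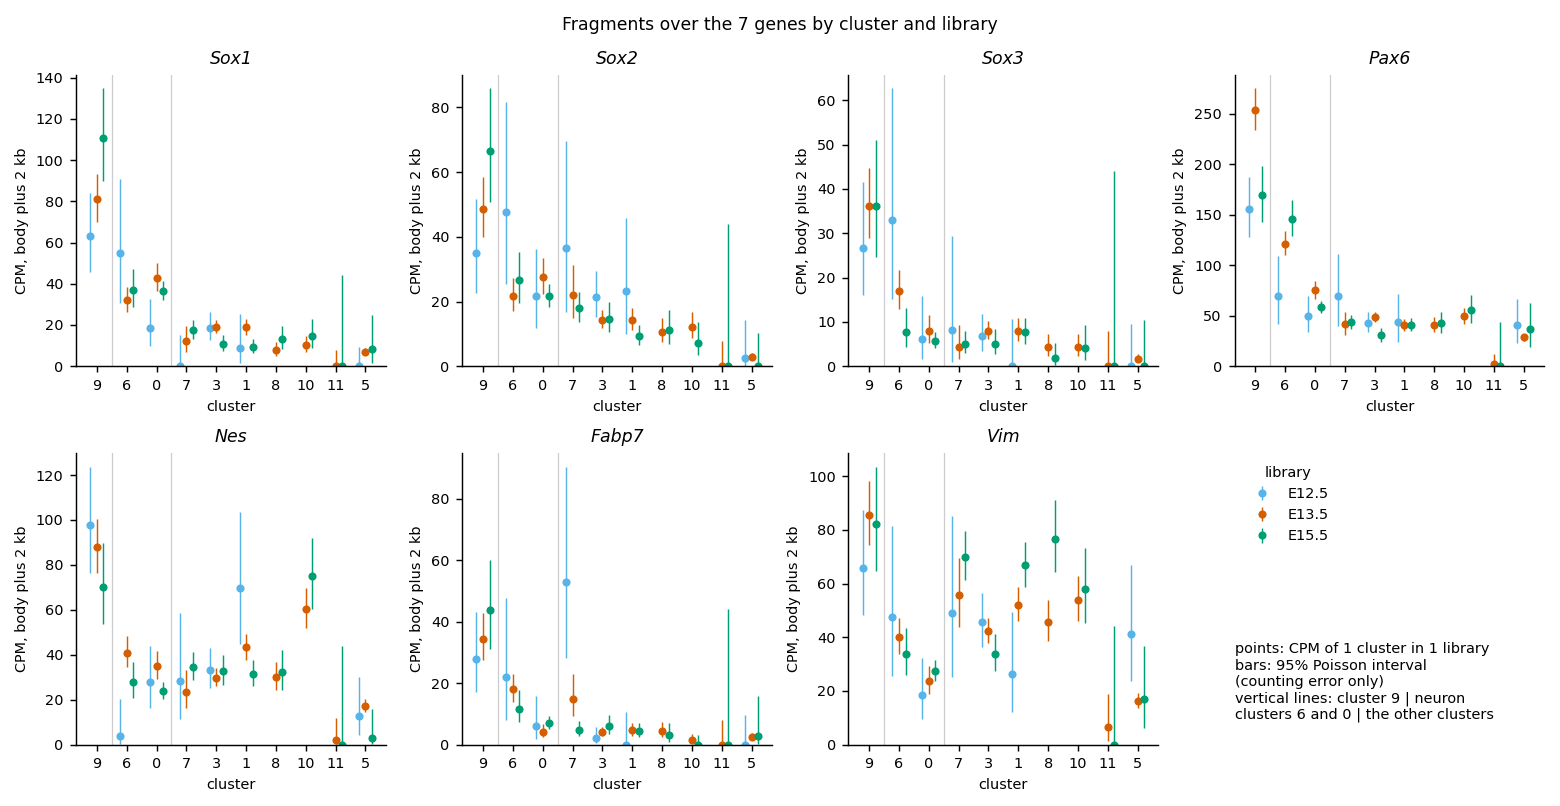
Level of each of the 7 genes (CPM, linear axis from 0) over the gene body plus 2 kb upstream, by cluster and library, with exact Poisson 95% intervals that cover counting error only. Cluster 9 is highest at E13.5 for all 7 genes, while at E12.5 clusters 6 and 7 are higher for Sox2, cluster 6 for Sox3 and cluster 7 for Fabp7.

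Whether the 7 genes differed between progenitor-like and neuron-like nuclei was asked first by ratios within each library, since 1 library per stage allows no test within a stage. In the E13.5 and E15.5 libraries the 95% interval of the ratio of cluster 9 to clusters 0 and 6 together lay above 1 for all 7 genes. Of all genes with at least 20 fragments in the groups compared, 18.9% and 15% had such an interval. At E12.5 it did for 5 of 7, against 15.6% of genes of at least 20 fragments. Sox2 and Sox3 were the exceptions, at 1.19-fold (0.663 to 2.13) and 1.88-fold (0.881 to 4.14). The smallest and largest ratios at E13.5 were those of Sox2 (1.97, 1.54 to 2.5) and Fabp7 (3.15, 2.28 to 4.36). At E15.5 they ranged from 2.21 for Pax6 (1.84 to 2.64) to 5.87 for Sox3 (3.66 to 9.28).

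The sums of fragments per cluster and library were then fitted together with the library as a block (27 sums of at least 5 nuclei). By edgeR's quasi-likelihood test with Benjamini-Hochberg adjustment over 18849 genes, 6 of the 7 genes were higher in cluster 9 than in clusters 0 and 6, where 0.934% of all genes were. The log2 fold changes of those 6 ran from 1.19 for Pax6 (SE 0.21, adjusted p = 0.000753) to 1.86 for Fabp7 (SE 0.45, adjusted p = 0.0234). Between them lay Sox1 at 1.26 (SE 0.31, adjusted p = 0.0252), Vim at 1.37 (SE 0.25, adjusted p = 0.00119), Nes at 1.52 (SE 0.27, adjusted p = 0.000957) and Sox3 at 1.70 (SE 0.40, adjusted p = 0.0202). Sox2 did not pass, at 0.96 (SE 0.31, adjusted p = 0.125). The median over the 7 was 1.37, and over all genes it was -0.00016. The p-values measure the spread between these sums only. SE stands for the size of the log2 fold change divided by the square root of the F statistic of edgeR's test.

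These calls depended on the E13.5 and E15.5 libraries. Without the E13.5 library, which held 50 of the 81 cluster 9 nuclei, 0 of the 7 genes and 5 genes in all passed as higher in edgeR's test. At an unadjusted p under 0.05 there were 6 of the 7 and 1243 genes in either direction. Without the E15.5 library, 1 passed (Pax6, log2 fold change 1.35, adjusted p = 0.0443) and 8 genes in all were higher. Without the E12.5 library all 7 passed, with 250 genes in all higher. With the 2 kb upstream left out of the span, 3 passed (Pax6, Nes and Vim), with 129 genes in all higher. By DESeq2 on the 27 sums, 6 of the 7 and 270 genes in all were higher.

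The neuron-like clusters were also compared one at a time. Against cluster 0 alone 6 of the 7 genes were higher over the body, where 0.913% of all genes were, and against cluster 6 alone 1 was (Nes, adjusted p = 0.0488), where 0.0796% of all genes passed. The log2 fold change of Fabp7 was 2.60 against cluster 0 and 1.12 against cluster 6, and that of Sox3 was 2.32 and 1.09. The difference between these contrasts was not tested. The leading genes of cluster 6 included Neurod1, Slc17a6 and Neurog2. The last of these, on the progenitor list, was also a leading gene of cluster 9 (64.8 CPM, against 60.2 CPM in cluster 6).

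**Figure D2:**
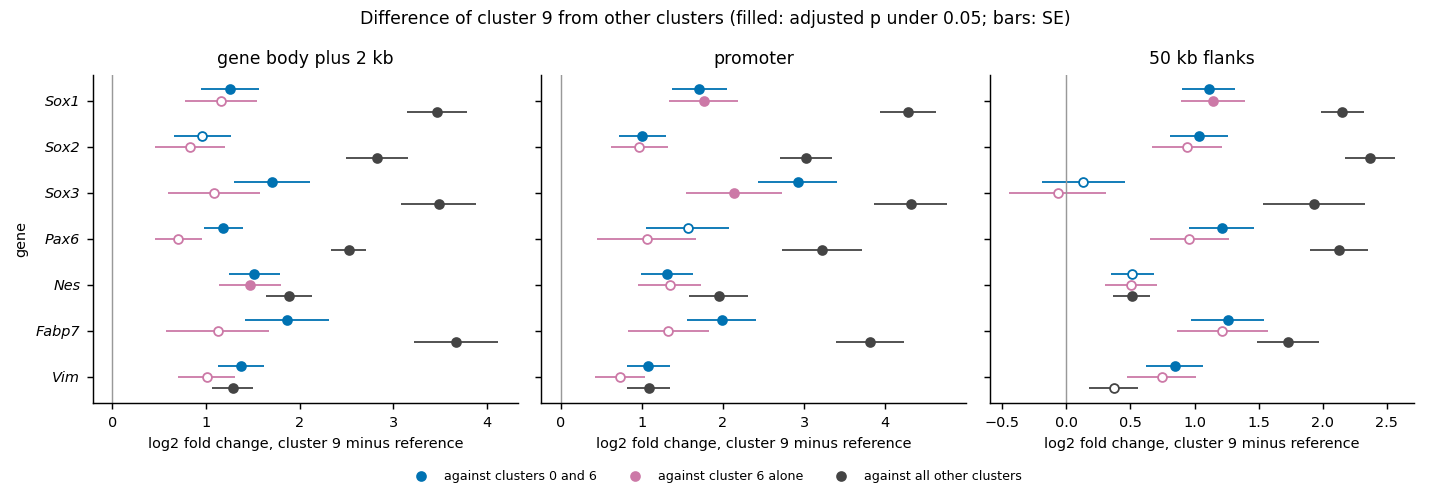
Log2 fold change of cluster 9 over clusters 0 and 6, over cluster 6 alone and over the mean of all other clusters for each of the 7 genes, for the body plus 2 kb, the promoter and the 50 kb flanks, with SE. Filled points passed edgeR's quasi-likelihood test at an adjusted p under 0.05 and open points did not, among them Sox2 over the body (0.96) and Sox3 over the flanks (0.13) against the neuron-like clusters.

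Against the mean of all other clusters, all 7 genes were higher over the body, where 7.64% of genes were. Pax6 had the smallest p of the 18849 genes tested (adjusted p = 3.06e-13), and Vim had the largest of the 7 (adjusted p = 4.15e-05). Cluster 11, of low depth and with erythroid markers, had no fragment over Sox1, Sox2, Sox3 or Fabp7, so the fitted size of this contrast depends on the prior count. With cluster 11 left out, a choice made after seeing the data, all 7 still passed over the body, at log2 fold changes from 0.97 for Vim (SE 0.20, adjusted p = 0.00167) to 2.96 for Fabp7 (SE 0.37, adjusted p = 7.95e-07), and 665 genes in all were higher. Over all other nuclei, Fabp7 was 3.98-fold, 6.60-fold and 7.75-fold in cluster 9 by stage. Sox3 was 3.78-fold, 5.56-fold and 6.57-fold, and Sox1 3.5-fold, 4.60-fold and 5.02-fold. Vim had the smallest ratios at E13.5 and E15.5, 2.33-fold (1.9996 to 2.70) and 1.74-fold (1.35 to 2.21). At E12.5 the smallest was that of Sox2, 1.62-fold (0.991 to 2.56), whose interval reached 1. Without the E13.5 library 6 of the 7 passed this test, with 445 genes in all higher, and without the E15.5 library all 7 did, with 796.

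The promoter, from 1000 bases upstream to 100 downstream of the gene's start, was read apart from the body. Starts were those of GENCODE, and the RefSeq starts of Sox1 and Vim lie inside the GENCODE genes. Sox3 had 14, 50 and 26 promoter fragments in cluster 9 (19.6, 21.3 and 29.3 CPM) and 4, 30 and 14 in clusters 0 and 6 (4.35, 4.21 and 1.62 CPM). Its promoter was thus higher in cluster 9 in every library, and by edgeR's test over 13703 genes its log2 fold change was 2.92 (SE 0.49, adjusted p = 1.88e-06). The Sox1 promoter had 26.6, 30.2 and 48.5 CPM in cluster 9 and 10.9, 9.96 and 10.7 CPM in clusters 0 and 6 (log2 fold change 1.71, adjusted p = 0.000114). The Fabp7 promoter had 11.2, 25.1 and 25.9 CPM against 4.35, 6.03 and 4.64 CPM (log2 fold change 1.99, adjusted p = 0.000504).

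Of the 7 promoters, 6 were higher in cluster 9 than in clusters 0 and 6, where 2.96% of genes were. They included Sox2, at 22.4, 31.1 and 38.4 CPM against 16.3, 15.1 and 12.53 CPM (log2 fold change 1.01, adjusted p = 0.0218). The Pax6 promoter did not pass (log2 fold change 1.56, SE 0.51, adjusted p = 0.0570), and had 8, 42 and 9 fragments in cluster 9. At E12.5 cluster 6, of 5 nuclei, was highest over the promoters of Sox1, Sox2 and Pax6, at 29.3, 40.3 and 14.7 CPM. Its intervals were 12.7 to 57.8, 20.1 to 72.2 and 3.997 to 37.6 CPM. Cluster 7, of 6 nuclei, was highest over that of Fabp7, at 32.6 CPM (14.1 to 64.2). The E12.5 ratio of the Sox2 promoter to clusters 0 and 6 was 1.37-fold (0.635 to 2.98). Against all other clusters the 7 promoters were all higher, where 8.9% of genes were. With cluster 11 left out, that of Vim no longer passed (0.62, SE 0.22, adjusted p = 0.0887) and the other 6 did, with 563 genes in all higher. Counted from the GENCODE start, the Vim promoter was not the highest in cluster 9 in any library, at 21.0, 23.9 and 28.2 CPM. Cluster 6 had 22 CPM at E12.5, cluster 7 had 25.7 CPM at E13.5 and cluster 8 had 31.9 CPM at E15.5. The RefSeq Vim promoter lies downstream of that span (chr2:13574061-13574360). Over it cluster 9 had 12.6, 17.9 and 22.6 CPM, against 7.19, 8.18 and 15.8 CPM in clusters other than 0, 6 and 9 together. Single clusters were not read over that span. Against all other clusters together, the GENCODE Vim promoter was 1.30-fold (0.687 to 2.31), 1.81-fold (1.34 to 2.39) and 1.54-fold (0.986 to 2.31) in cluster 9. The Nes promoter ranked 4 of 10 clusters at E15.5, at 1.29-fold the other clusters together (0.634 to 2.35). That ratio rests on 11 fragments in cluster 9 and was 2.27-fold as a mean over nuclei. Without the E13.5 library 4 of the 7 passed against all other clusters, with 184 genes in all higher, and without the E15.5 library 6 did, with 553. Against cluster 6 alone 2 of 7 were (Sox1, adjusted p = 0.0106, and Sox3, adjusted p = 0.0405), where 0.759% of genes were. Without the E13.5 library 1 of the 7 promoters (Sox3) passed against clusters 0 and 6, with 68 genes in all higher, and without the E15.5 library 0 did by edgeR, with 6 of the 7 and 978 genes in all at an unadjusted p under 0.05. By DESeq2 with all 3 libraries 7 of the 7 promoters and 459 in all were higher.

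The flanks, 50 kb on either side of each gene with the gene itself left out, hold distal elements but also other genes. No other protein-coding gene lay in the flanks of Sox1, Sox2 or Sox3. Pax6 had Elp4 there, Vim had Trdmt1, Fabp7 had Pkib and Smpdl3a, and Nes had 6 (Mrpl24, Rrnad1, Isg20l2, Crabp2, Bcan and Hapln2). The Sox2 flanks had 255, 343 and 326 CPM in cluster 9 and 150, 168 and 128 CPM in clusters 0 and 6, so that cluster 9 was higher in every library. Of the 7 genes, 5 had higher flanks in cluster 9 (0.756% of genes did), from Vim at a log2 fold change of 0.85 (adjusted p = 0.0492) to Fabp7 at 1.26 (adjusted p = 0.0151). The flanks of Sox3 had 49.0, 31.1 and 38.4 CPM against 48.9, 27.5 and 30.4 CPM, a log2 fold change of 0.13 (adjusted p = 0.946). By these fitted values Sox3 had the largest difference of the 7 promoters and the smallest of the 7 flanks, although within the E12.5 library the ratio of the Nes promoter (7.29-fold, 2.11 to 38.8) was above that of the Sox3 promoter (4.50-fold, 1.41 to 18.8). The flanks of Nes did not pass either (0.51, adjusted p = 0.154).

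Against all other clusters the flanks of 6 of 7 genes were higher, where 5.95% of genes were. Those of Sox3 were among them (1.93, adjusted p = 0.000737), and those of Vim were not called (0.37, adjusted p = 0.262). Cluster 11 was at 0 CPM over the Sox3 flanks at E13.5 and E15.5, and their log2 fold change ran from 0.999 to 2.02 under the alternatives. Over all other nuclei the Sox3 flanks were 1.55-fold, 1.82-fold and 1.67-fold in cluster 9 by stage. Against cluster 6 alone 1 passed (Sox1, adjusted p = 0.0417), where 0.0713% of genes did. Without the E13.5 library 0 of the 7 flanks passed against clusters 0 and 6, with 6 of the 7 and 1271 genes in all at an unadjusted p under 0.05 by edgeR, and without the E15.5 library 1 did, with 10 genes in all higher. Against all other clusters the flanks of 4 of the 7 passed without the E13.5 library, with 291 genes in all higher, and those of 5 without the E15.5 library, with 502.

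To place these differences within the loci, windows of 500 bases within 50 kb of the 7 genes were read. Windows were chosen in the E13.5 library, with at least 10 fragments of cluster 9 and at least 2-fold the level in clusters 0 and 6, and were then read in the other libraries. Near the 7 genes 130 of the 180 windows with at least 10 fragments of cluster 9 were chosen, and across the genome 34.1% were. These figures describe the choice and support nothing, since the minimum was set on cluster 9 and in the same library. At E15.5, 93 of the 130 were again at least 2-fold (71.5%), where 52.5% of the windows chosen across the genome were. At E12.5, 72 were (55.4%), against 42.7%. Summed over the 130 windows, cluster 9 was 3.92-fold clusters 0 and 6 at E15.5 and 2.39-fold at E12.5. Over all windows chosen by this rule across the genome the sums were 2.64-fold and 1.68-fold. Neighbouring windows can share fragments, and the clusters were built from all 3 libraries. No window was read against cluster 6 alone. Cluster 0 gave 70.4%, 51.0% and 79.1% of the fragments in genes of clusters 0 and 6 together, by stage.

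The genes differed in how many windows had enough fragments. Of 47 such windows near Pax6 38 were chosen, and of 41 near Sox2 33 were. For Nes it was 23 of 43, for Sox1 15 of 26, for Fabp7 9 of 10, for Vim 8 of 9 and for Sox3 4 of 4. These counts too describe only the choice, which 34.1% of such windows across the genome met. At E15.5, 20 of the 38 Pax6 windows were again at least 2-fold (52.6%, against the 52.5% across the genome) and 29 of the 33 Sox2 windows (87.9%). For Nes 15 were, for Sox1 12, for Fabp7 8, for Vim 6 and for Sox3 3. Of the 4 Sox3 windows, 3 lay in its own promoter. These had 34, 29 and 14 fragments of cluster 9 at E13.5 against 17, 9 and 15 of clusters 0 and 6, or 6.07-fold (3.30 to 11.6), 9.79-fold (4.51 to 23.5) and 2.83-fold (1.27 to 6.30). The choice in that library fixed these ratios at 2-fold or more. Summed over the 4 Sox3 windows, the counts were 33 against 28 at E15.5 (11.5-fold) and 19 against 8 at E12.5 (3.06-fold).

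**Figure D3:**
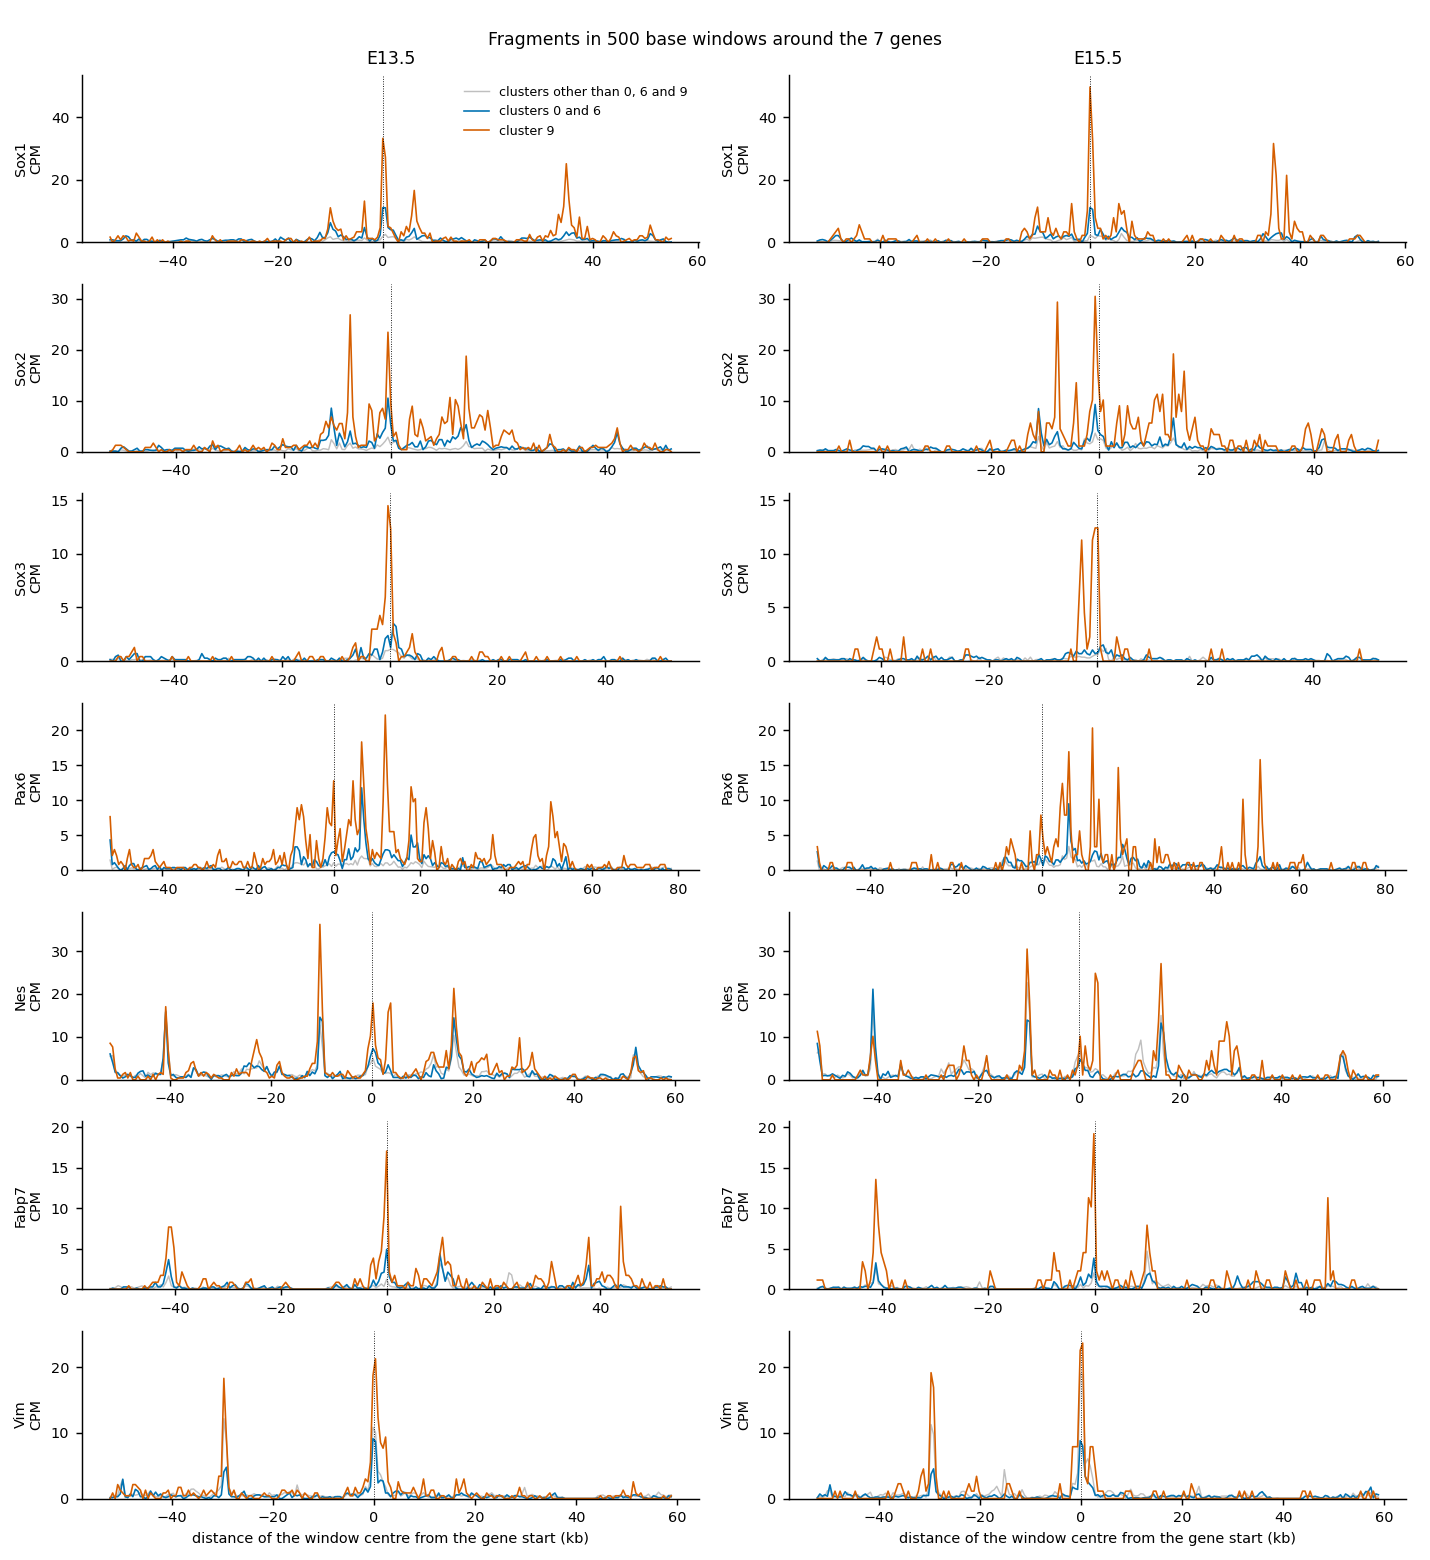
Level of cluster 9, of clusters 0 and 6 and of the remaining clusters (CPM per window of 500 bases) by distance of the window's centre from each gene's start (kb), with E13.5 on the left and E15.5 on the right. Of 33 windows chosen at E13.5 near Sox2, 29 were again at least 2-fold at E15.5, and of 38 near Pax6, 20 were. Across the genome 52.5% of chosen windows were. The 4 chosen for Sox3 lie near its start.

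The Sox2 upstream stretch lies in the window with the most cluster 9 fragments at E13.5 near that gene, 63 against 29 in clusters 0 and 6 (6.60-fold, 4.19 to 10.6). At E15.5 it had 26 against 34 (7.44-fold, 4.29 to 12.8), and at E12.5 it had 1 fragment in each. The Sox2 promoter window differed less, with 55 against 75 at E13.5 (2.23-fold, 1.54 to 3.20) and 27 against 80 at E15.5 (3.28-fold, 2.04 to 5.13). Since both windows were chosen at E13.5, only the E15.5 and E12.5 values are apart from the choice, and at E15.5 the intervals of the upstream and promoter windows overlapped.

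The Pax6 intron 3 window had 52 against 21 fragments at E13.5 (7.52-fold, 4.45 to 13.1) and 18 against 19 at E15.5 (9.21-fold, 4.56 to 18.5). The Pax6 promoter window had 30 against 19 at E13.5 (4.80-fold, 2.61 to 9.02) and 7 against 14 at E15.5 (4.86-fold, 1.66 to 12.9). The Fabp7 downstream window had the largest ratio of the windows named by the rule at E13.5, 24 against 4 (18.2-fold, 6.26 to 72.3), and 10 against 6 at E15.5 (16.2-fold, 5.34 to 54.3). At the Fabp7 promoter window the counts were 40 against 35 (3.47-fold, 2.15 to 5.63) and 17 against 33 (5.01-fold, 2.62 to 9.26).

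The Nes upstream window, 85 against 104 fragments at E13.5 (2.48-fold, 1.84 to 3.34) and 27 against 120 at E15.5 (2.19-fold, 1.39 to 3.34), was also open in the remaining clusters, with 378 and 304 fragments. The Nes promoter window had 42 against 52 fragments at E13.5 (2.45-fold, 1.59 to 3.76) and 9 against 41 at E15.5 (2.13-fold, 0.912 to 4.46). The Nes intron 2 window was chosen after its values were seen and had fewer fragments. It had 37 against 25 at E13.5, 4.49-fold, 22 against 13 at E15.5, 16.5-fold, and 11 against 0 at E12.5. Near Sox1 the windows were its promoter, 78 against 79 (2.998-fold, 2.16 to 4.15) and 44 against 96 (4.46-fold, 3.05 to 6.43), and the next window downstream, in its exon, 64 against 79 (2.46-fold, 1.74 to 3.46) at E13.5. The Vim windows lay around its start, at 2.45-fold (1.65 to 3.61) and 2.06-fold (1.37 to 3.06) at E13.5 and 2.96-fold and 2.56-fold at E15.5. Away from the starts, 2 more windows are named after their values were seen. A window 34.96 kb downstream of the Sox1 start had 59 against 24 fragments at E13.5 (7.47-fold, 4.57 to 12.55) and 28 against 19 at E15.5 (14.3-fold). A window 29.7 kb upstream of the Vim start, in Trdmt1, had 43 against 29 (4.50-fold, 2.75 to 7.48) and 17 against 32 (5.17-fold), and the remaining clusters had 360 and 151 fragments there.

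**Figure D4:**
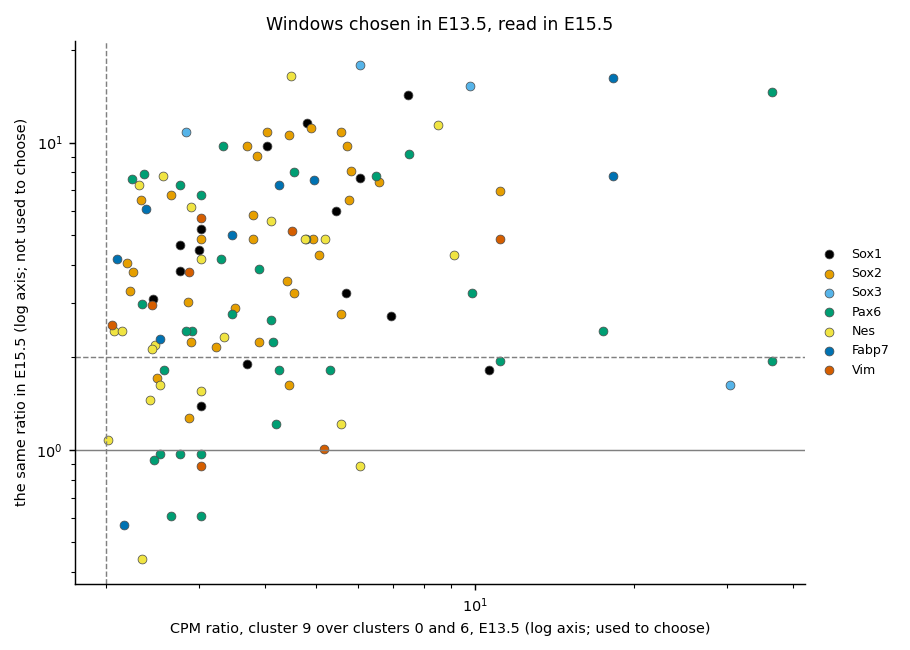
Ratio of cluster 9 to clusters 0 and 6 (log axis) in windows chosen at E13.5 near the 7 genes, E13.5 against E15.5, 122 of 130 windows drawn because 8 had a count of 0 in a group, coloured by gene. The dashed lines stand at 2-fold and the solid line at 1. Of the 130, 93 were at least 2-fold at E15.5 as well.

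Stages were compared within cluster 9 by ratios and without a test. From E13.5 to E15.5 the body of Pax6 was 0.667-fold (0.553 to 0.798) and that of Sox1 1.37-fold (1.06 to 1.75). These 2 of 7 intervals left out 1, near the 26.8% of genes with at least 20 fragments whose interval did. The body of Pax6 was at 1.64-fold (1.33 to 2.02) from E12.5 to E13.5. The flanks of Pax6 were at 0.443-fold (0.349 to 0.557), from 221 to 98.1 CPM, after 1.57-fold (1.26 to 1.96) from E12.5 to E13.5. From E13.5 to E15.5 the flanks of 2 of 7 genes (Pax6 and Nes) had an interval that left out 1 in cluster 9, where 36.4% of genes of at least 20 fragments did. In clusters 0 and 6 together those of 5 of 7 did, where 43.8% of such genes did, with Pax6 at 0.857-fold (0.758 to 0.969). In clusters 0 and 6 the intervals of 3 of the 7 bodies left out 1, near the 33.4% of genes with at least 20 fragments whose interval did. These were Sox3 (0.498-fold, 0.347 to 0.708), Nes (0.652-fold, 0.543 to 0.784) and Pax6 (0.784-fold, 0.704 to 0.874). The mix of the pool shifted, since cluster 0 gave 51.0% of its fragments in genes at E13.5 and 79.1% at E15.5. Taken alone, Pax6 was at 0.778-fold in cluster 0 (0.665 to 0.911) and 1.20-fold in cluster 6 (1.03 to 1.40). Sox3 was at 0.718-fold in cluster 0 (0.433 to 1.20) and 0.460-fold in cluster 6 (0.237 to 0.833). Nes was lower in both, at 0.685-fold (0.540 to 0.871) and 0.677-fold (0.481 to 0.941). Stage, embryo and the level of the sections cannot be told apart with 1 library each.

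**Figure D5:**
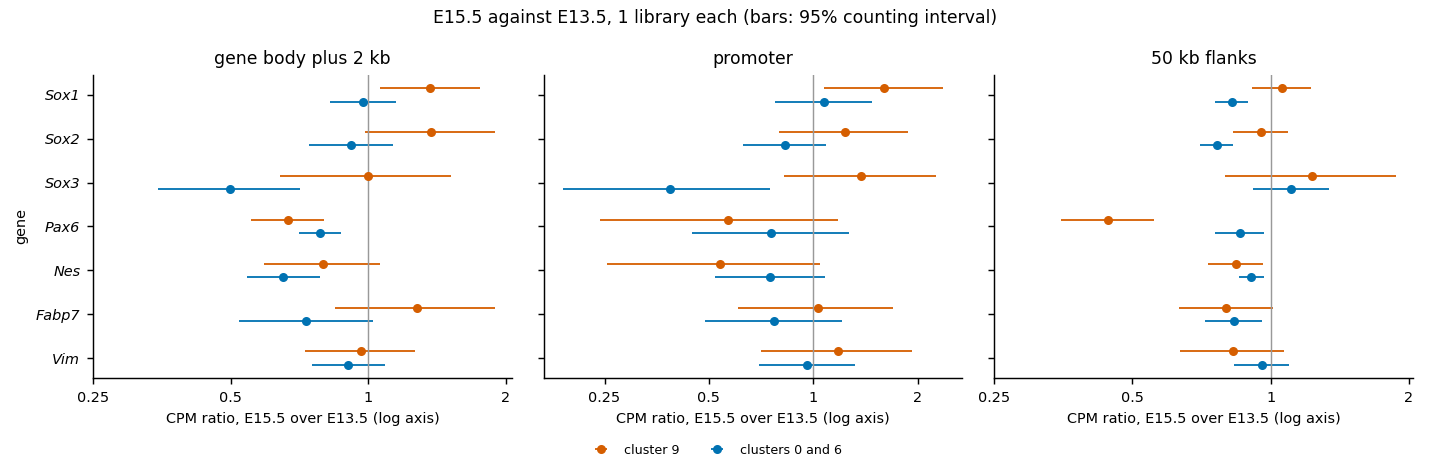
Ratio of E15.5 to E13.5 (log axis) for each of the 7 genes in cluster 9 and in clusters 0 and 6 together, over the body plus 2 kb, the promoter and the 50 kb flanks, with exact 95% counting intervals. Over the body in cluster 9 Pax6 lies below 1 and Sox1 above it, and the intervals of the other 5 genes cross 1.

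Single nuclei were sparse, and the erythroid-like cluster 5, which should lack these genes, gave the background. A fragment over the Pax6 body was present in 92.6% of cluster 9 nuclei, 68.8% of nuclei of clusters 0 and 6 and 37.6% of cluster 5. After each nucleus was thinned to 10000 fragments, which left out 1 of 81 and 11 of 401 nuclei of the first groups, these shares were 65.1%, 32.4% and 10.9%. For Sox3 they were 65.4%, 21.9% and 5.91%, and after thinning 20.1%, 4.88% and 0.820%. For Fabp7 they were 66.7%, 23.9% and 7.53%, and after thinning 18.8%, 4.87% and 1.22%. Cluster 5 had a median of 59054.5 fragments per nucleus. At 10000 fragments a cluster 9 nucleus had fragments over 1.92, 2.47 and 2.67 of the 7 genes on average by stage. The mean was 1.04 in clusters 0 and 6, 0.714 in clusters other than 0, 6 and 9 together and 0.343 in cluster 5.

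Fragment length was not used to count the genes. Short fragments, below the DNA of 1 nucleosome, come from nucleosome-free DNA. Over Nes they made up 76.0% of fragments in cluster 9 (71.1 to 80.5) and 64.5% in clusters 0 and 6 (60.2 to 68.7), and over Pax6 71.6% (68.5 to 74.6) and 61.8% (59.2 to 64.4). These shares are pooled over libraries, as are 72.2% against 68.8% for Sox2 and 67.9% against 56.7% for Fabp7. Over all fragments the shares were 63.7% and 62.6%. How many other genes differ as much was not computed. Within libraries, Pax6 was at 70.3%, 74.0% and 63.3% in cluster 9 against 54.9%, 65.9% and 58.1% in clusters 0 and 6, higher each time. Nes was at 75.7%, 75.2% and 79.0% against 78.9%, 69.6% and 56.8%, so at E12.5, with 19 fragments in clusters 0 and 6, it was not higher. Of the other 5, Fabp7 was higher in cluster 9 in each library, and the other 4 were lower in at least 1. Sox2 was lower in cluster 9 at E13.5 (72.8% against 73.9%) and at E15.5 (62.7% against 64.1%), and Vim at E15.5 (61.6% against 61.9%). Sox1 (71.1% against 85.2%) and Sox3 (57.9% against 76.9%) were lower at E12.5.

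The pattern over the 27 sums set the genes apart from one another. By Pearson's r of log2(CPM + 1), over sums that share libraries and depth, Pax6 was most like Lhx2 (0.958), Otx1 (0.946) and Xylt1 (0.946). The genes most like Sox1 included Barhl2 (0.883) and Rhbdl3 (0.879), and Sox2 was most like 3110082J24Rik (0.943), Nr2f1 (0.941) and Ttc34 (0.932). Fabp7 was most like Sox3 (0.831), then Neurog1 (0.809) and Olig2 (0.805), while Sox3 was most like Wwc1 (0.895), Peg12 (0.847) and Gm9925 (0.845). Nes was most like Abcd3 (0.932), Cxcr4 (0.921) and Jazf1 (0.917). Vim was most like Atoh8 (0.942), Ahnak (0.935) and Asrgl1 (0.929). Within the 7 genes r ran from 0.347 (Nes with Fabp7) to 0.836 (Pax6 with Vim).

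The other progenitor markers were read in the same fits. Of the 30, 9 were higher in cluster 9 than in clusters 0 and 6 over the body (0.934% of genes were) and 0 lower. Their median log2 fold change over the 30 was 0.69. Without the E13.5 library 5 genes in all were higher, and without the E15.5 library 8, so not all 9 passed there. The following are among the 9 called with all 3 libraries. These are the Notch targets Hes1 (1.73, adjusted p = 7.68e-05) and Hes5 (1.47, adjusted p = 0.0169), the receptor Notch1 (1.32, adjusted p = 0.000168) and Hopx (1.30, adjusted p = 0.00257). Over promoters 9 of 29 were higher (2.96% of genes were) and 0 lower, led by Sox21 (2.37), Rfx4 (2.31), Gli3 (2.19) and Hes1 (2.06). Over flanks 5 of 30 were higher (0.756% of genes were), led by Pou3f2 (1.12) and Hopx (1.11). Against all other clusters 28 of 30 bodies, 23 of 29 promoters and 19 of 30 flanks were higher and 0 lower. Of all genes 7.64%, 8.9% and 5.95% were higher there, in that order.

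Of the neuron markers tested, 3 of 18 were lower over the body in cluster 9 than in clusters 0 and 6 and none higher by edgeR. In all, 55 of 18849 genes were lower. At an unadjusted p under 0.05 there were 10 of the 18, and by DESeq2 5 were lower. The 3 called by edgeR were Ina (-1.87), an intermediate filament of neurons, Slc17a6 (-1.72), a glutamate transporter, and Stmn2 (-1.21). Without the E13.5 library 0 genes in all were lower, and without the E15.5 library 2. Over promoters 2 of 14 were lower, Ina (-2.81) and Tubb3 (-1.59), where 80 of 13703 genes were. Against the mean of all other clusters 7 of the 18 were called higher over the body. So were 3 of 10 neural crest and glia markers (Olig2 at 2.5, Olig1 at 2.33 and Aqp4 at 1.03). Of 8 mesenchyme markers 2 were (Pdgfrb at 0.71 and Prrx1 at 0.66), and 1 of 8 erythroid markers was lower (Slc4a1 at -1.39). Pooled levels went the other way for mesenchyme, with 0 of 8 markers at least 1.5-fold in cluster 9 and 336 against 444 CPM summed. For neuron markers 4 of 18 were (1549 against 1417 CPM), and for neural crest and glia 3 of 10 (211 against 207 CPM). The mean includes the low-depth cluster with erythroid markers, where the mesenchyme sum was 53.6 CPM. For these lists, calls without it are not given. Of the 10 neural crest and glia markers, 0 passed over the body against clusters 0 and 6 by edgeR (3 at an unadjusted p under 0.05, and 2 by DESeq2), with Olig1 at 1.28 and Olig2 at 1.16. Over the flanks 2 of 10 were higher, Olig1 (1.13) and Olig2 (0.96), where 0.756% of genes were. Over promoters 1 of 8 was, Olig2 (1.51, adjusted p = 0.0346 by edgeR), where 2.96% of genes were. Of the mesenchyme (8), erythroid (8), muscle (7), endothelium (6), epithelium (6), white blood (5) and liver (5) markers, 0 passed over the body in this contrast by edgeR. At an unadjusted p under 0.05 there were 1, 3, 1, 1, 0, 0 and 1 in that order, and by DESeq2 1 erythroid marker passed. The members of each list with the log2 fold changes of the largest size were Pdgfrb (0.61) and Col3a1 (-0.49), Gata1 (1.71) and Hbb-bt (1.67), Myod1 (-1.30) and Myf5 (-1.04), Kdr (-0.77) and Tie1 (0.74), Krt8 (-0.29) and Cdh1 (0.20), Itgam (-0.65) and Spi1 (0.23), and Apoa1 (-0.92) and Ttr (0.85), in the same order. Their part in the differences of the 7 genes was not tested.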

How the data were processed

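Nuclei of 3 mouse embryo libraries (E12.5, E13.5 and E15.5, 1 each, wild-type C57BL/6JRj) were profiled by droplet ATAC-seq. Per the submitters' processing notes, the authors used Cell Ranger ATAC 2.0.0, Seurat 4.1.0 and Signac 1.6.0 with mm10. The authors deposited, for each library, fragment lists with the read count of each fragment, and 1 table with the cluster of each of 1879 nuclei. Of that table, 20 columns of per-nucleus values and scores were not used.

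Each unique fragment was counted once, whatever its deposited read count. Fragments of each cluster and library were summed over 21593 protein-coding genes of GENCODE vM21 (of 21938 on standard chromosomes, leaving out 91 of the Pcdh and Ugt arrays and 228 with spans over 500 kb). Spans were the gene body plus 2 kb upstream, the promoter (1000 bases upstream to 100 downstream) and 50 kb flanks without the gene. CPM divides by the fragments in genes of the same nuclei. Sums of at least 5 nuclei entered edgeR 4.0.16 (R 4.3.3), with TMM, filterByExpr, the library as a block and quasi-likelihood tests, Benjamini-Hochberg adjusted over all genes at 0.05. DESeq2 1.42.0 was an alternative. The fits were tested on simulated data. Intervals are 95% and exact, and cover counting error only. Nuclei are not replicates, each stage has 1 library, and nothing was tested between stages.

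The genes, lists and tests were chosen with earlier results of these data known. The text names all 7 genes and, for each, the 3 protein-coding genes of most similar pattern. For Sox1, 1 gene that this rule would name is not reported here. It also names, for each marker list (neural progenitor, neuron, neural crest and glia, mesenchyme, erythroid, muscle, endothelium, epithelium, white blood and liver), at most 4 genes that passed against clusters 0 and 6 with the largest fold changes, or, where none did, 2 over the body. For each gene the 2 chosen windows with most cluster 9 fragments are named. Sequences came from RefSeq (GRCm38.p6) promoters and the GRCm38 genome. Clusters 2 and 4, doublet removal and the spatial data were left out. The authors integrated the nuclei with their spatial profiles by reciprocal LSI anchors and Harmony, grouped by sample. They state dimensions and a resolution for clustering the spatial sections, while those used for the clusters of nuclei are not given in the sources used here.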

Additional observations from a re-analysis of the deposited data

Results flagged for a closer look

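Fragments over the 7 genes were also present in barcodes that entered no comparison. Summed over the bodies of the 7 genes and given as a share of all unique fragments on the counts-per-million scale, they came to 115 in cluster 2, 125 in cluster 4 and 75.1 in the barcodes outside the table of nuclei. On the same scale cluster 9 had 347, clusters 0 and 6 together 129, all compared clusters other than 9 had 101 and the erythroid-like cluster 5 had 50.5. The levels of clusters 2 and 4 were thus near that of the compared clusters other than 9, and that of cluster 4 rests on 25 fragments.

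The 50 kb flanks of Sox1 moved in opposite directions from E12.5 to E13.5, with counting intervals on either side of 1. They were at 0.833-fold in cluster 9 and at 1.37-fold in clusters 0 and 6. Cluster 0 alone was at 1.68-fold (1.31 to 2.18) and cluster 6 alone at 1.01-fold (0.723 to 1.45). Of 20719 genes with at least 20 fragments in both groups, 5.78% had flanks that moved in opposite directions in the same way between cluster 9 and the pool. The difference was not tested, since each stage is 1 library, and E12.5 had 11 nuclei of cluster 9.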

How the results depend on the processing

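The depth limits these results: cluster 9 had 81 nuclei, 50 of them at E13.5, and single windows at E12.5 held few fragments. Of 490 log2 fold changes of the 7 genes under the alternatives, 489 stayed above 0, 62 of the called ones no longer passed and 8 others newly passed. The exception in direction was Sox3 over the flanks against cluster 6 alone, at -0.067. Clusters were compared within libraries, with the library as a block in every fit. Between stages, no paired analysis was possible because each stage is 1 library.

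Against clusters 0 and 6, DESeq2 called 420 genes over bodies and 480 over flanks, and sums of at least 10 nuclei called 359 and 462. Against cluster 6 alone 29 genes over bodies, 127 over promoters and 24 over flanks were called, with 1, 2 and 1 of the 7 genes. Without the 2 kb upstream 3 of the 7 bodies passed, and with no filter on low counts 293 promoters. Against the other clusters, sums of at least 10 nuclei called 2513 flanks, and without cluster 11, an alternative chosen after seeing the data, 798 bodies, 617 promoters and 905 flanks were called. As means over nuclei, the ratio to clusters 0 and 6 over the body was 4.18 for Pax6 at E12.5 and 3.87 for Nes at E15.5. Windows chosen at 3-fold recurred at E15.5 for 59.8% near the 7 genes and for 49.2% across the genome. Those of at least 20 fragments did so for 80.0% and 65.3%.

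Leaving out 1 library at a time, calls against clusters 0 and 6 ran from 5 to 332 bodies (0 to 7 of the 7 genes), 60 to 494 promoters (0 to 6) and 4 to 359 flanks (0 to 5). Against the other clusters they ran from 453 to 1697 bodies (6 to 7), 187 to 1259 promoters (4 to 7) and 302 to 1878 flanks (4 to 6). The highest counts came without E12.5 and the causes were not tested.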
